A study of Mus musculus with 6 samples.

Results

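The enzymes of glutathione, thioredoxin and peroxide metabolism were followed in abdominal white adipose tissue (WAT) of hNAG-1 and wild-type (WT) mice. The members were taken by gene name: the alpha, kappa, mu, omega, pi, theta and zeta glutathione S-transferases (GSTs), the microsomal GSTs, the glutathione peroxidases, the peroxiredoxins, the thioredoxins and thioredoxin reductases, and Gclc, Gclm, Gss and Gsr. The rule used no measured level and found 46 genes, read by 66 probes, of 27962 gene names on the array. The hNAG-1 mice were 30 wk old females of strain C57/BL6 that carried a transgene for human NAG-1, also called GDF15, a divergent cytokine of the TGF-beta superfamily, and the WT mice were females of the same strain and age without it. The study's methods describe the transgene as active in most tissues, high in white and brown fat, and place the array samples in 1 transgenic line, so an effect of that line cannot be told apart from an effect of hNAG-1. Each genotype had 3 single-colour Agilent arrays, each hybridised with Cy3-labelled RNA pooled from 2 mice. The methods name an Affymetrix array, whereas the deposited scanner files are from Agilent. The mouse probes do not measure the human transgene, which was therefore not checked here.

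Glutathione is a tripeptide thiol that cells make from glutamate, cysteine and glycine. Glutathione peroxidases use it to reduce hydrogen peroxide and lipid peroxides, GSTs attach it to reactive lipid aldehydes and other electrophiles, and glutathione reductase regenerates it with NADPH. Peroxiredoxins also reduce peroxides but are recharged by thioredoxin, which thioredoxin reductase in turn reduces with NADPH, with separate chains in the cytosol and in mitochondria. In fat cells, which store lipid and have a high demand for NADPH, both systems limit peroxides and the aldehydes that lipid peroxidation releases.

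The log2 signal of a probe was set relative to the 75th percentile of its array, so 0 stands for a probe at that percentile, and levels of different probes were not set against each other. That percentile lay at a processed signal of 896, 739 and 657 for hNAG-1 and 1029, 958 and 988 for WT. The arrays correlated with each other at 0.96 to 0.99 over the 21243 genes compared below, with 1 probe for each gene. On slide 1, hNAG-1 replicate 1 lay beside all 3 WT arrays, while slide 2 carried hNAG-1 replicates 2 and 3 alone. The tissue label held: the 20 adipocyte markers had a median log2 signal of 7.39, 7.41 and 7.29 on the hNAG-1 arrays and 6.64, 6.76 and 7.10 on the WT arrays. WT replicate 2 stood apart in RNA of other organs. Its 12 measured liver markers summed to 406 times the 75th percentile of the array. The sums were 92.1, 133 and 79.0 on the hNAG-1 arrays and 79.8 and 88.0 on the other WT arrays. Cyp2e1, at 5.87 to 6.49 on every array, weighs heavily in most of these sums. The median log2 signal of the liver markers was -3.77, 1.29 and -2.77 on the hNAG-1 arrays and -1.39, 3.66 and -0.13 on the WT arrays. Of these markers 11 had negative differences, with 0 at an unadjusted p under 0.05. The 12 measured pancreas markers summed to 31.5 on WT replicate 2, against 5.31 to 5.88 on the hNAG-1 arrays and 4.37 and 5.68 on the other WT arrays. The liver gene Alb measured 0.40, 5.16 and 0.97 in hNAG-1 mice and 2.35, 7.17 and 3.69 in WT mice. So hNAG-1 replicate 2 also carried some of this signal, and WT replicates 1 and 3 had more of it than hNAG-1 replicates 1 and 3. The 12 skeletal muscle markers summed to 503 on hNAG-1 replicate 2 and to between 62.7 and 310 on the other arrays.

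Of the 46 members, 43 were well above background on all 6 arrays and were compared between the genotypes with limma. The fit took in all 21243 genes that were well above background on at least 3 arrays. Gpx5, an epididymal peroxidase, was well above background on 0 arrays, Gpx6 on 0 hNAG-1 arrays and 1 WT array, and Gsta2 on 1 hNAG-1 array and 1 WT array, so these 3 were not tested. No member passed an adjusted p of 0.05 (Benjamini-Hochberg over all genes), and of all genes tested 0% passed. The smallest adjusted p among the members was 0.164, which was also the smallest of any gene. With trended and robust variances 2 members passed, Mgst2 with an adjusted p of 0.0219 and Gpx4 with an adjusted p of 0.034, against 0.753% of all genes. The fitted difference was positive, that is, higher in hNAG-1 mice, in 33 members and negative in 10. Positive differences made up 76.7% of the members and 61.3% of all genes. The median log2 fold change of the members was 0.20, against 0.081 over all genes tested, and 28 members lay above that all-gene median. At an unadjusted p under 0.05, 9 members (20.9%) were higher in hNAG-1 mice, where 9.57% of all genes were, and 2 members (4.65%) were lower, where 3.64% of all genes were. In either direction these were 11 members (25.6%), against 13.2% of all genes. With the filter set to all 6 arrays, 11.3% of all genes were higher and 4.42% lower. The arrays of the genotypes did not overlap in 13 members higher in hNAG-1 mice (30.2%, against 14.9% of all genes) and in 3 members lower in hNAG-1 mice (6.98%, against 5.97%). The differences were small: the 95% confidence interval lay below a log2 fold change of 1 in 41 members and above -1 in 42. For 1 gene alone an exact two-sided permutation of 3 arrays against 3 cannot go below p = 0.1. Every smaller p here therefore rests on the model of limma. That model takes the log2 values as normally distributed, with a variance drawn partly from the gene itself and partly from all genes. In bulk tissue, fewer cells of a type and less RNA per cell cannot be told apart.

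**Figure D1:**
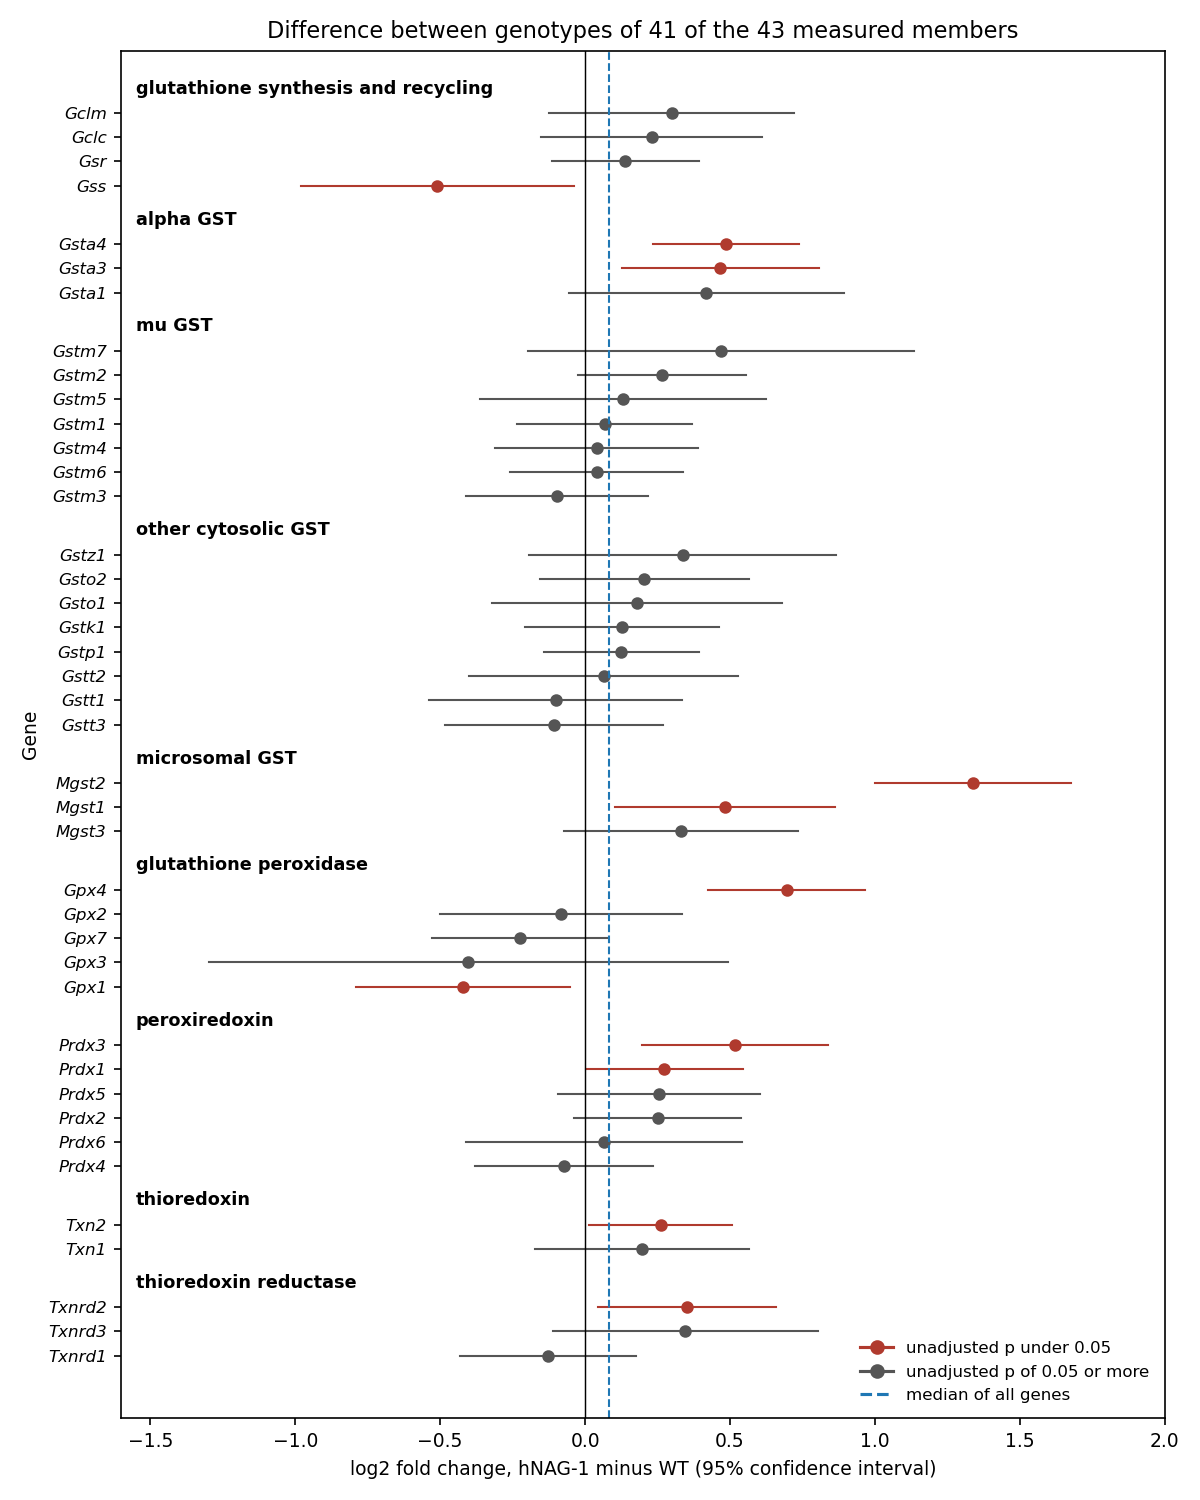
Log2 fold change, hNAG-1 minus WT, of 41 of the 43 measured members, grouped by family on the vertical axis. Points are limma estimates from 3 arrays of each genotype, bars are 95% confidence intervals, red marks the 11 members with an unadjusted p under 0.05 and the dashed line is the median of all genes (0.081); Mgst2 at 1.34 lies farthest to the right, and the alpha and microsomal GSTs all lie right of the dashed line.

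The genes that make and recycle glutathione did not share a direction, with 3 positive and 1 negative difference. Gss, glutathione synthetase, which completes the tripeptide, had a log2 signal of 0.44, 0.15 and 0.80 in hNAG-1 mice and 0.83, 1.05 and 1.04 in WT mice. Every hNAG-1 array lay below every WT array, although hNAG-1 replicate 3 came within a few hundredths of WT replicate 1. The difference was -0.51 ± 0.19 (log2, SE), or 1.42-fold lower in hNAG-1 mice, with an adjusted p of 0.362 (0.0385 unadjusted). The Gss probe, which the array design places on mouse build mm7 at chr2:155304554-155305653, is 60 bases long, so this span of 1100 bases takes in at least 1 intron. Gclc and Gclm encode the catalytic and the modifier subunit of glutamate-cysteine ligase, the rate-limiting step of the synthesis. Gclc measured 1.14, 1.19 and 0.94 in hNAG-1 mice and 0.97, 1.01 and 0.61 in WT mice. Gclm measured -0.79, -1.19 and -1.18 in hNAG-1 mice and -1.54, -1.16 and -1.35 in WT mice. Both pairs of groups overlapped, with differences of 0.23 ± 0.15 for Gclc and 0.30 ± 0.17 for Gclm (adjusted p 0.561 and 0.503). Gsr, glutathione reductase, did not overlap, at 1.79, 1.71 and 1.78 in hNAG-1 mice and 1.71, 1.58 and 1.58 in WT mice, although the nearest arrays of the genotypes were equal after rounding. Its 3 probes gave differences of 0.14, 0.15 and 0.16, and the brightest had an adjusted p of 0.592.

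All 3 measured alpha GSTs had positive differences, and their median was 0.47. Gsta4, the isoform best known for conjugating 4-hydroxynonenal, an aldehyde from lipid peroxidation, measured 0.96, 0.85 and 0.82 in hNAG-1 mice and 0.37, 0.38 and 0.43 in WT mice. All hNAG-1 arrays were higher than all WT arrays, and both genotypes were tight (SD 0.077 and 0.031). Each of these values is the average of 10 spots of the probe, where most member probes had 1 spot. The difference was 0.49 ± 0.10, or 1.40-fold, with an adjusted p of 0.209 (0.00339 unadjusted). Gsta3, another alpha GST, measured 5.71, 5.65 and 5.99 in hNAG-1 mice and 5.30, 5.22 and 5.44 in WT mice. Again no arrays overlapped, and hNAG-1 replicate 3 was the highest. The difference was 0.47 ± 0.14 (adjusted p 0.283), and a second Gsta3 probe gave 0.43. Gsta1 measured 0.09, 0.23 and 0.73 in hNAG-1 mice and -0.11, 0.04 and -0.14 in WT mice, a difference of 0.42 ± 0.19 (adjusted p 0.422) without overlap. The Gsta1 probe is also listed for Gsta2 in the array design, so these genes cannot be told apart by it.

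The other cytosolic GSTs had group medians closer to the all-gene median, and none of them had an unadjusted p under 0.05. The 7 mu GSTs, a cluster on chromosome 3, had a median difference of 0.068, with 6 positive and 1 negative. Gstm1, a main mu isoform, measured 7.10, 7.31 and 7.25 in hNAG-1 mice and 7.29, 7.07 and 7.09 in WT mice. The groups overlapped and the difference was 0.068 ± 0.12, with the opposite sign in a second probe (-0.26), under quantile normalization (-0.19) and within the shared slide (-0.055). Gstm2 was the mu isoform whose arrays did not overlap, at 5.35, 5.33 and 5.28 in hNAG-1 mice and 5.06, 4.91 and 5.19 in WT mice (difference 0.27 ± 0.12, adjusted p 0.405). Gstm7 had a larger difference with a larger error, 0.47 ± 0.27, and measured -2.84, -2.25 and -3.18 in hNAG-1 mice and -3.35, -2.95 and -3.37 in WT mice, where hNAG-1 replicate 3 fell inside the WT range. Under normexp background correction the sign of Gstm7 turned (-0.14). The 8 kappa, omega, pi, theta and zeta GSTs had a median difference of 0.13, or 0.0026 under quantile normalization. Gstz1, which also degrades maleylacetoacetate in tyrosine breakdown, measured 5.41, 5.34 and 4.95 in hNAG-1 mice and 4.70, 4.73 and 5.26 in WT mice. WT replicate 3 reached the hNAG-1 values and the difference was 0.34 ± 0.21 (adjusted p 0.543). The pi GST Gstp1, whose probe is also listed for Gstp2, differed by 0.13 ± 0.11.

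The theta GSTs Gstt1, Gstt2 and Gstt3 each had their highest value on WT replicate 2, the array highest in liver markers. So had the untested Gsta2, Gpx5 and Gpx6. That array also had the largest share of probes well above background, 82.0% against 71.2% to 77.9% on the other arrays. Gstt1 measured -0.43, -0.37 and -0.45 in hNAG-1 mice and -0.42, 0.03 and -0.56 in WT mice. Gstt3 measured 1.78, 1.83 and 1.77 in hNAG-1 mice and 1.72, 2.18 and 1.80 in WT mice. Without WT replicate 2 the differences were 0.071 for Gstt1 and 0.0345 for Gstt3, in place of -0.10 and -0.11 with it. The part of liver RNA in these values was not tested.

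The microsomal GSTs, membrane enzymes of the MAPEG family, all had positive differences with a median of 0.48, or 0.30 under quantile normalization, and 1 of them, Mgst2, had the largest difference and the smallest p of the 43 members. Mgst2 has both glutathione transferase and peroxidase activity and can make leukotriene C4. It measured 5.11, 5.05 and 4.93 in hNAG-1 mice and 3.72, 3.49 and 3.86 in WT mice. The lowest hNAG-1 array was more than 1 log2 unit above the highest WT array. The difference was 1.34 ± 0.14, or 2.53-fold (95% confidence interval 1.00 to 1.68 on the log2 scale), with an adjusted p of 0.164 (8.26e-05 unadjusted). Its single probe is placed on mm7 at chr3:51807146-51807205. Mgst1 measured 7.38, 7.07 and 6.94 in hNAG-1 mice and 6.75, 6.52 and 6.67 in WT mice. The groups did not overlap, the difference was 0.48 ± 0.15 (unadjusted p 0.0213, adjusted p 0.309) and a second probe gave 0.52. Under quantile normalization it was 0.30, with an unadjusted p of 0.0981. Mgst3 measured 3.94, 3.79 and 3.56 in hNAG-1 mice and 3.32, 3.31 and 3.67 in WT mice, with WT replicate 3 inside the hNAG-1 range. Its brightest probe differed by 0.33 ± 0.16, and dimmer probes differed by 0.72 and 0.27.

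The glutathione peroxidases split by gene, with 1 positive and 4 negative differences among the 5 measured. Gpx4, a selenoenzyme that reduces lipid hydroperoxides inside membranes and so guards cells against ferroptosis, measured 6.87, 6.90 and 7.07 in hNAG-1 mice and 6.22, 6.22 and 6.30 in WT mice. All hNAG-1 arrays were higher, and the gap between the groups was wider than the range within either. The difference was 0.70 ± 0.11, or 1.62-fold, with an adjusted p of 0.169 (0.000834 unadjusted). Gpx1, the abundant cytosolic and mitochondrial selenoenzyme that removes hydrogen peroxide, went the other way, at 6.61, 6.46 and 6.39 in hNAG-1 mice and 6.94, 7.10 and 6.68 in WT mice. The groups did not overlap, but hNAG-1 replicate 1 and WT replicate 3 were close. The difference was -0.42 ± 0.15, or 1.34-fold lower in hNAG-1 mice (unadjusted p 0.0318, adjusted p 0.344). Without WT replicate 2 it was -0.32 with an unadjusted p of 0.0857, and within the shared slide, with 1 hNAG-1 array, it was -0.30. Gpx7, a peroxidase of the endoplasmic reticulum, did not overlap either, at 1.17, 1.14 and 1.31 in hNAG-1 mice and 1.36, 1.34 and 1.59 in WT mice (difference -0.23 ± 0.12, adjusted p 0.483). Gpx3, the secreted plasma peroxidase, measured 5.30, 4.53 and 4.91 in hNAG-1 mice and 5.45, 5.86 and 4.64 in WT mice. Its WT arrays spread widely (SD 0.62) and its difference was -0.40 ± 0.36, the largest SE of the members. The same WT arrays, replicates 1 and 2, had the higher smooth muscle and pericyte marker levels: those 11 markers summed to 91.9, 81.5 and 115 on the hNAG-1 arrays and 354, 438 and 82.2 on the WT arrays, with 2 markers positive and 9 negative. The part of these cells in the Gpx3 and Gpx1 values was not tested. Gpx2, the intestinal form, differed by -0.083 ± 0.17.

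**Figure D2:**
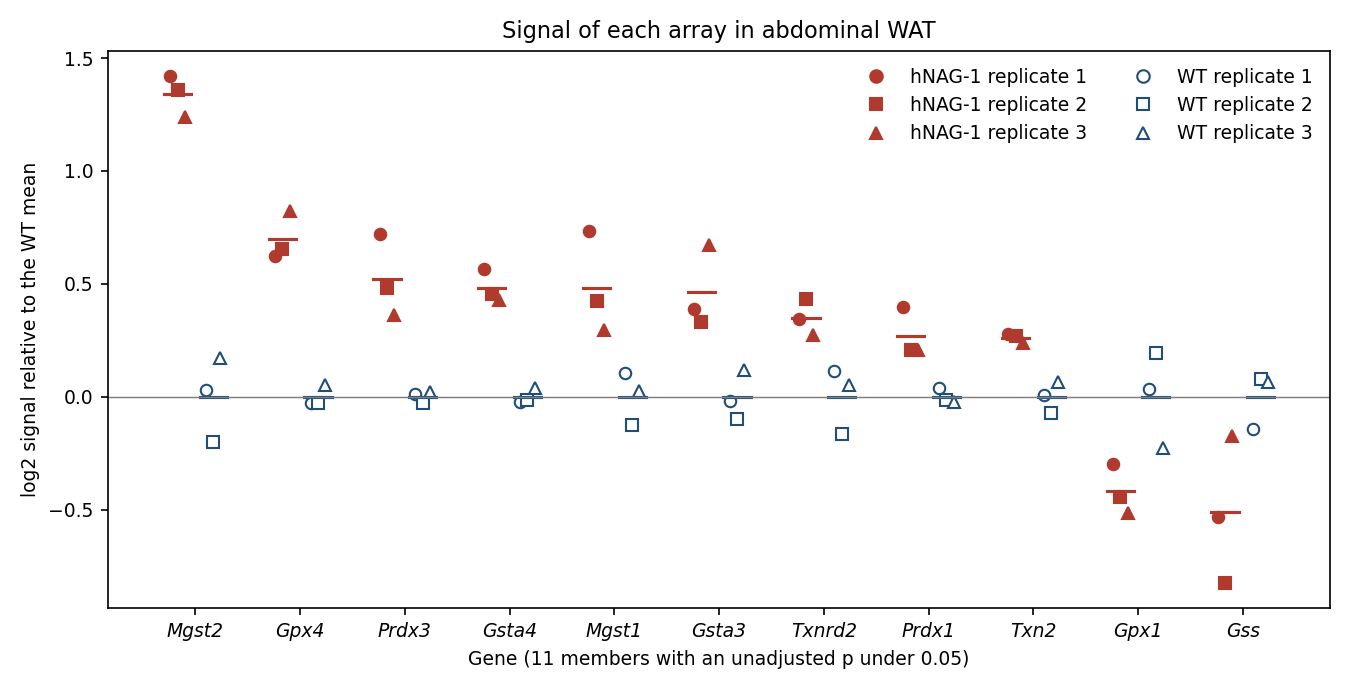
Log2 signal by array, set against the WT mean of each gene, for the 11 members with an unadjusted p under 0.05. Filled red symbols are the 3 hNAG-1 arrays and open blue symbols the 3 WT arrays, with short lines at the group means; the genotypes do not overlap in any of these genes, and Gpx1 and Gss lie below the WT arrays in hNAG-1 mice.

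Of the 8 peroxiredoxin genes, 7 had positive differences, and the family median was 0.25, or 0.085 under quantile normalization. Prdx3, the mitochondrial peroxiredoxin, measured 4.30, 4.06 and 3.94 in hNAG-1 mice and 3.59, 3.55 and 3.60 in WT mice. The WT arrays were almost equal (SD 0.029) and all hNAG-1 arrays were higher. The difference was 0.52 ± 0.13, or 1.43-fold, with an adjusted p of 0.244 (0.00771 unadjusted). Prdx1, an abundant cytosolic form, measured 5.31, 5.12 and 5.12 in hNAG-1 mice and 4.95, 4.90 and 4.89 in WT mice, without overlap. Its difference was 0.27 ± 0.11 (unadjusted p 0.0477, adjusted p 0.375), or 0.086 under quantile normalization. Prdx2, the other main cytosolic form, gave 0.25, 0.24 and 0.25 with its 3 probes, and the brightest did not overlap, at 5.69, 5.63 and 5.56 in hNAG-1 mice and 5.44, 5.22 and 5.45 in WT mice. Prdx5, found in mitochondria, peroxisomes and cytosol, overlapped, at 3.89 to 4.05 in hNAG-1 mice and 3.58, 3.64 and 3.96 in WT mice (difference 0.25 ± 0.14). Prdx4, the peroxiredoxin of the endoplasmic reticulum, differed by -0.074 ± 0.12, with both genotypes between 1.95 and 2.25, and turned its sign under normexp (0.094). Prdx6, a peroxiredoxin with phospholipase activity that is recharged by glutathione, had probes that disagreed: the brightest differed by 0.065 ± 0.19 (-0.092 under quantile normalization) and the dimmer ones by -0.41, 0.45 and 0.12.

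Of the 5 thioredoxins and thioredoxin reductases, 4 had positive differences and 2 of these, both mitochondrial, had an unadjusted p under 0.05. Txnrd2, the mitochondrial reductase, measured 1.25, 1.34 and 1.18 in hNAG-1 mice and 1.02, 0.74 and 0.96 in WT mice. No arrays overlapped, the difference was 0.35 ± 0.12 (unadjusted p 0.0310, adjusted p 0.341) and the dimmer probes gave 0.47 and 0.42. Txn2, the mitochondrial thioredoxin, measured 4.71, 4.70 and 4.67 in hNAG-1 mice and 4.44, 4.36 and 4.50 in WT mice. These hNAG-1 arrays differed by only a few hundredths, and the difference between genotypes was 0.26 ± 0.10 (unadjusted p 0.0412, adjusted p 0.368), with 0.18 from a second probe and 0.11 under quantile normalization. Txn1, the cytosolic thioredoxin, overlapped, at 4.38, 4.28 and 4.59 in hNAG-1 mice and 4.41, 4.04 and 4.21 in WT mice (difference 0.20 ± 0.15). Txnrd1, its reductase, overlapped too, at 2.32, 2.44 and 2.44 in hNAG-1 mice and 2.47, 2.42 and 2.70 in WT mice (difference -0.13 ± 0.12). Txnrd3, known from testis as a thioredoxin and glutathione reductase, differed by 0.35 ± 0.18. Whether genes of the mitochondrial and the cytosolic system differed from each other was not tested.

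Many genes of these families are known targets of NRF2, a transcription factor that binds the antioxidant response element, so the core letters of that element, TGACNNNGC on either strand, were looked for in the RefSeq promoter windows (GRCm38.p6) that run from 250 bases before a gene's start to 50 bases after it. Of the 39 members with a window, 7 (17.9%) held a match, against 3781 of 27025 genes (14%). The stretches around these matches are shown so that the letters can be read beside the signals, with the match in capitals.
Gsta3, chr1:21240434-21240502, + strand: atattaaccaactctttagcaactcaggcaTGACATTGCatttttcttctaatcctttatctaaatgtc
Gstm5, chr3:107895782-107895850, + strand: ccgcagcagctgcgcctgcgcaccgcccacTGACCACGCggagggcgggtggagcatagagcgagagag
Gstm7, chr3:107931705-107931773, - strand: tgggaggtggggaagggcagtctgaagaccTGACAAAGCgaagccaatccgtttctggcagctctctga
Gclm, chr3:122245393-122245461, + strand: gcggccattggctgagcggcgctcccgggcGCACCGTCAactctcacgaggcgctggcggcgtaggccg
Prdx1, chr4:116685436-116685504, + strand: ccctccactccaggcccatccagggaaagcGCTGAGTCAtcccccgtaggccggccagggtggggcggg
Mgst1, chr6:138140441-138140509, + strand: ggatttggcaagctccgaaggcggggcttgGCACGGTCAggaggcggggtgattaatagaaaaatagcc
Txnrd1, chr10:82859084-82859152, + strand: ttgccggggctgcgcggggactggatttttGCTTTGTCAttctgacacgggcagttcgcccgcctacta
Among the 10 members with an unadjusted p under 0.05 that had a window, 3 held a match, namely Gsta3, Mgst1 and Prdx1, with the match starting 121, 56 and 133 bases before the gene start. Of the other 4, Gclm, Gstm5 and Gstm7 differed by 0.30, 0.13 and 0.47 and Txnrd1 by -0.13. The window of Mgst2 held no match on either strand and is printed whole because this gene had the largest difference.
Mgst2, chr3:51660929-51661228, + strand: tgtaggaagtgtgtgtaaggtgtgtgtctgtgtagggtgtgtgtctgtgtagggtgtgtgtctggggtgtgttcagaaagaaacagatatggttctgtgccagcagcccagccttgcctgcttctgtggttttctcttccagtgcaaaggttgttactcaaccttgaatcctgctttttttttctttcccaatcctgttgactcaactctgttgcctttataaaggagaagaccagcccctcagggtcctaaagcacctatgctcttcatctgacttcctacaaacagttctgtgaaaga

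The genes around the members were read from lists of neighbouring functions, and none of them passed the adjusted threshold. Their counts at an unadjusted p under 0.05 stand against 9.57% of all genes higher and 3.64% lower, and their medians against 0.081. NADPH feeds both reductase systems. Of 19 measured genes of NADPH supply and the pentose phosphate pathway, 5 (26.3%) were higher at an unadjusted p under 0.05 and 0 lower. The median of the list was 0.20. The higher genes were Me1, malic enzyme (1.49 ± 0.20), and the pentose phosphate enzymes Pgd (0.95 ± 0.14), Tkt (0.82 ± 0.14), Taldo1 (0.69 ± 0.14) and G6pdx (0.55 ± 0.11). Of these, Tkt and Taldo1 do not make NADPH themselves. Of 20 glutaredoxin, thioredoxin-like and sulfiredoxin genes, 7 (35%) were higher and 0 lower, with a median of 0.20. Srxn1, sulfiredoxin, which rescues peroxiredoxins oxidised beyond the reach of thioredoxin, measured 2.58, 2.76 and 2.67 in hNAG-1 mice and 2.18, 2.02 and 2.19 in WT mice, without overlap (difference 0.54 ± 0.11, adjusted p 0.209). Glrx, the cytosolic glutaredoxin, differed by 0.61 ± 0.20 and the mitochondrial Glrx5, which serves iron-sulfur cluster assembly, by 0.48 ± 0.18.

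NRF2 itself (Nfe2l2) overlapped between genotypes, at 2.79, 2.56 and 2.65 in hNAG-1 mice and 2.96, 2.65 and 2.83 in WT mice (difference -0.14 ± 0.13). Of 12 genes for NRF2, KEAP1 and their partners, 4 were higher and 1 lower at an unadjusted p under 0.05. Keap1, the adaptor that targets NRF2 for degradation, was among the higher at 0.31 ± 0.10. The others were Nfe2l1 (0.34 ± 0.13), Sqstm1 (0.32 ± 0.12) and Rbx1 (0.31 ± 0.12). Mafk, a partner of NRF2 on DNA, was the lower at -0.82 ± 0.21. Of 20 known NRF2 targets outside the families, 4 (20%) were higher, against 9.57% of all genes, and 0 lower, namely Srxn1, Cbr1, Ftl1 and Fth1. The often used target genes Nqo1 and Hmox1 differed by -0.045 ± 0.12 and -0.0775 ± 0.14.

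Among 22 superoxide dismutases, catalase and other peroxide enzymes, 2 were higher and 3 lower at an unadjusted p under 0.05. Sod1, the cytosolic superoxide dismutase, measured 7.61, 7.61 and 7.65 in hNAG-1 mice and 7.23, 7.03 and 7.17 in WT mice (difference 0.48 ± 0.11, adjusted p 0.214). Sod3, the extracellular form, lay lower, at -0.17, -0.36 and -0.33 in hNAG-1 mice and 0.28, 0.99 and 0.70 in WT mice (difference -0.94 ± 0.20, adjusted p 0.209). Neither gene's arrays overlapped. The lower genes also included Ncf1, a subunit of the phagocyte NADPH oxidase, at -0.65 ± 0.18. Catalase (Cat) differed by 0.012 ± 0.15.

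Of 25 genes of glutathione turnover and conjugate handling, 2 were higher and 3 lower, and of 11 genes of cysteine supply by transsulfuration 2 were higher and 0 lower. Of 21 genes for selenoprotein synthesis and other selenoproteins, 4 were higher and 0 lower, among them Sephs2 (0.46 ± 0.17) and Pstk (0.40 ± 0.13), which act in making selenocysteine. A gene now named Gpx8 that the array lists under an older name, and that the naming rule therefore left out, differed by 0.37 ± 0.16.

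Cell type markers differed beside the members. The 20 adipocyte markers had a median difference of 0.33, with 17 positive. At an unadjusted p under 0.05, 6 of them were higher (30%, against 9.57% of all genes) and 0 lower. They summed to 3450, 3780 and 3980 on the hNAG-1 arrays and 2620, 2970 and 3350 on the WT arrays. The 16 measured macrophage markers had a median of -0.26, with 15 negative, and the 16 fibroblast and preadipocyte markers a median of -0.32, with 13 negative. In each of these lists 4 markers were lower at an unadjusted p under 0.05 (25%, against 3.64% of all genes) and 0 higher. The 13 T and B lymphocyte markers were all positive, with a median of 0.49 and 0 at an unadjusted p under 0.05, and summed to 2.66, 5.69 and 2.99 on the hNAG-1 arrays and 2.01, 3.15 and 2.14 on the WT arrays, highest on hNAG-1 replicate 2. The part of these cell types in the members' values was not tested. Relative to its WT mean the median member measured 0.18, 0.16 and 0.17 on the hNAG-1 arrays and -0.024, -0.072 and 0.025 on the WT arrays. These values were of like size on all 3 hNAG-1 arrays, but they include the shift of all genes. Set against the all-gene median, the median of the members was 0.196 within the shared slide, where replicate 1 is the only hNAG-1 array. It was 0.057 without hNAG-1 replicate 1, 0.18 without replicate 2 and 0.13 without replicate 3.

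Mgst2, Gpx4, Prdx3 and Gsta4 had an unadjusted p under 0.05 under each of the 17 alternatives that kept at least 2 arrays of each genotype. Their differences ranged over all 18 alternatives run from 1.20 to 1.47, from 0.52 to 0.93, from 0.40 to 0.72 and from 0.44 to 0.57. Not every alternative could move them. The value table equalled the scanner signal, and current symbols, the other filters on dim probes and the mean of probes left these differences unchanged. Within the shared slide, hNAG-1 replicate 1 against the 3 WT arrays gave 1.41, 0.62, 0.72 and 0.57 for the same genes, where the single hNAG-1 array has no spread of its own. Of the other 7, the sign was kept under all 18, while the unadjusted p stayed under 0.05 in 14 of the 17 for Mgst1, 14 for Gsta3, 11 for Gpx1, 10 for Txnrd2, 9 for Gss, 7 for Prdx1 and 6 for Txn2. Without WT replicate 2, the array highest in liver markers, 5 members (Mgst2, Gpx4, Prdx3, Gsta4 and Gsta3) were higher at an unadjusted p under 0.05 and 0 lower. These 5 were 11.6% of the members, and 7.01% of all genes were higher in that fit, against 20.9% and 9.57% with all arrays.

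**Figure D3:**
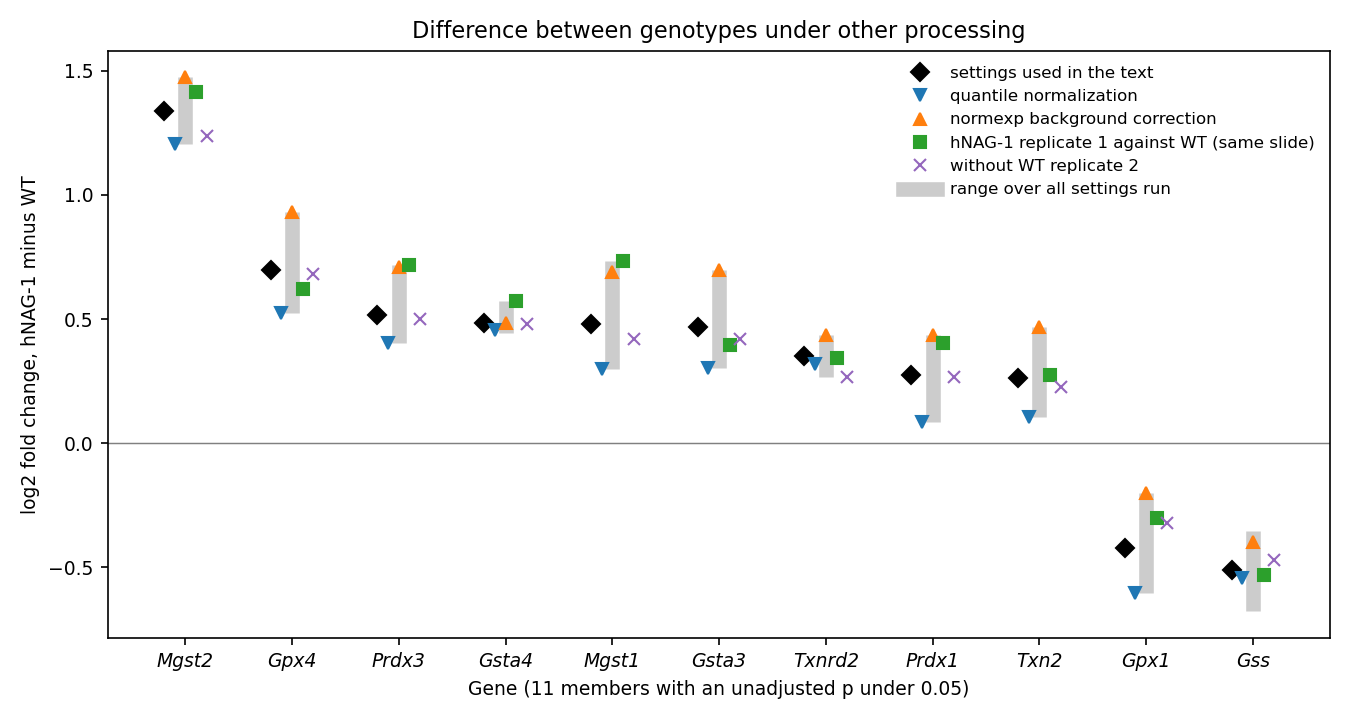
Log2 fold change, hNAG-1 minus WT, of the 11 members with an unadjusted p under 0.05, under other processing. Black diamonds are the values given in the text, coloured symbols are 4 of the alternatives and grey bars span all settings run; the sign of each gene is the same throughout, and the ranges of Mgst2 (1.20 to 1.47) and Gpx4 (0.52 to 0.93) stay above those of Prdx1 and Txn2.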

How the data were processed

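Gene expression in abdominal WAT of 30 wk old female mice was measured on 6 single-colour Agilent arrays, 3 for hNAG-1 and 3 for WT mice, each of a pool of 2 mice. No mouse entered more than 1 pool, so a p-value here measures the spread among pools, and the precision is limited by the number of arrays. The authors deposited scanner output of Agilent Feature Extraction 9.5 (from the submitters' processing notes) with spot intensity, background-subtracted on each array but not normalized between arrays, and a value table whose 45018 rows all equal the processed intensity of the scanner files.

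After control and outlier spots were dropped and replicate spots averaged, each log2 processed signal was scaled to the 75th percentile of its array. Probes well above background on at least 3 arrays were kept, and a gene, as the files name it, was represented by its brightest probe. Of the 66 member probes, 57 were matched to RefSeq genes by accession, 8 by symbol and 1 by synonym. The comparison of hNAG-1 with WT was a two-sided limma test (lmFit and eBayes, limma 3.58.1, R 4.3.3), and p-values were adjusted by Benjamini-Hochberg over all 21243 genes, with 0.05 as the threshold. The fit was tested on simulated data. The rule for named genes took the 11 members with an unadjusted p under 0.05, the member of each family with the largest difference, the core enzymes whatever their values, members whose probes disagreed in sign, and up to 4 genes with the smallest p of each list of neighbouring functions. Other genes were named to complete a family or pathway, after their values were seen. The members, lists and alternatives were chosen with earlier results of these data known. Some items are counted but not reported here by name.

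Alternatives were quantile normalization, normexp (offset 50), other filters on dim probes, the mean of probes, current symbols, trended and robust variances, slide and replicate number as blocks, the shared slide alone, the value table, and each array left out in turn. The replicate numbers did not pair the arrays: the deviations of same-numbered arrays correlated at 0.0965, 0.511 and 0.0919.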

Additional observations from a re-analysis of the deposited data

How the results depend on the processing

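The 24 named members gave 432 values under 18 alternatives, of which 417 kept their sign and side of the adjusted threshold, 2 gained the threshold and 13 turned their sign. Some alternatives, such as the value table and the trended and robust variances, could not turn a sign, so these counts are not of independent checks. The cause was not tested. The number of members higher in hNAG-1 mice at an unadjusted p under 0.05, 9 as reported, was 5 under quantile normalization (11.6%, against 8.53% of all genes), 4 under normexp background correction (9.3%, against 1.63%), 5 within the shared slide (11.6%, against 2.91%, from 1 hNAG-1 array without spread of its own) and between 5 (without WT replicate 2: 11.6%, against 7.01%) and 14 (without WT replicate 3: 32.6%, against 10.3%) with 1 array left out. The number lower, 2 as reported, was 0 under normexp, within the shared slide and with a fixed slide term, and 0 to 2 with 1 array left out, at 0 without WT replicate 1, WT replicate 2 or hNAG-1 replicate 2. With trended and robust variances 2 members passed the adjusted threshold, in place of 0. Members whose arrays did not overlap, 13 higher and 3 lower as reported, were 23 higher and 5 lower within the shared slide (53.5% and 11.6%, against 28% and 26.9% of all genes, which overlap less often with 1 hNAG-1 array), 7 lower under quantile normalization (16.3%, against 8.01%), 0 lower under normexp (against 2.69%), and 15 to 21 higher (21 without WT replicate 3: 48.8%, against 23.2%) and 3 to 4 lower with 1 array left out.

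The median log2 fold change of the members, 0.20, was 0.076 under quantile normalization and 0.28 under normexp, where the all-gene median was 0.017 and -0.20, so that the members lay 0.06 and 0.48 above it. It was 0.17 to 0.24 with 1 array left out, at the highest without WT replicate 3. The numbers of the labels allow a replicate block, but the check of pairing did not bear it out. With it 7 members were higher (16.3%, against 7.78% of all genes) and 1 lower (2.33%, against 4.11%). Not every array deviated most like its own number (hNAG-1 replicate 1 correlated at 0.34 with WT replicate 3).

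Reversed signs were those of Gstm1 (-0.19 under quantile normalization, -0.096 as the mean of its probes, -0.055 within the shared slide or with a fixed slide term), Gstm7 (-0.14 under normexp), Prdx4 (0.094 under normexp, -0.14 to 0.011 with 1 array left out) and Prdx6 (-0.092 under quantile normalization, -0.051 within the shared slide or with a fixed slide term, -0.04 to 0.24 with 1 array left out). Slide 2 held no WT array, so slide and genotype can be told apart only through hNAG-1 replicate 1.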
